A study of Homo sapiens with 6 samples.

Results

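Heat shock proteins, their DNAJ co-chaperones and the subunits of the cytosolic chaperonin ring were compared between SW403 cells with an IRS2 knockdown and control SW403 cells. Genes were chosen by symbol: the HSPA, HSPB, HSPD, HSPE, HSPH and HSP90 families, DNAJA, DNAJB and DNAJC genes, CCT2 to CCT8, and TCP1. Of 26490 symbols in the count table, 82 matched, and the 70 with a mean of at least 10 counts over the 6 libraries are described here. All 70 entered the test. The 12 below that level were HSPA6, HSPA12B, HSPB2, HSPB3, HSPB6, HSPB7, HSPB8, HSPB9, DNAJB3, DNAJB7, DNAJB8 and DNAJB13, each with at most 10 counts in any library. Among the chosen symbols, HSPBP1, HSPBAP1 and HSPB11, fit the naming pattern and are not themselves chaperones of these families, and HSP90B2P is a pseudogene.

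SW403 is an established human colon adenocarcinoma line. Total RNA was sequenced from 3 control and 3 knockdown cultures, all grown for 24 h in DMEM with fetal bovine serum and with no treatment. The genotype field calls the controls WT, and the sample descriptions carry the letters NS for controls and KO for knockdown samples. How IRS2 was lowered, and whether each culture represents its own line or all represent 1 clone, is not given in the sources used here. The p-values therefore measure the spread between these cultures.

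Heat shock proteins bind unfolded or partly folded proteins. HSP70 proteins do so in cycles of ATP hydrolysis that DNAJ proteins, also called HSP40, start and that HSP110 proteins reset by nucleotide exchange. HSP90 acts later, on near-native clients such as kinases and steroid receptors, and the chaperonin ring encloses newly made actin, tubulin and other proteins in its cavity. Heat shock factor 1 (HSF1) drives many of the cytosolic genes through heat shock elements, and the unfolded protein response drives the endoplasmic reticulum (ER) chaperones through ER stress elements. IRS2 encodes an adaptor of the insulin and insulin-like growth factor receptors.

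The upstream sequences of 5 genes are shown because the results turn on a near-identical pair, an abundant constitutive gene, and ER genes that carry the same element. Each is the 250 bases before the RefSeq gene start on GRCh38.p14, 5′ to 3′ on the gene's strand. Capitals mark GAANNTTC or TTCNNGAA, the dimer cores of a heat shock element, or the ER stress element (CCAAT, then 9 bases of any kind, then CCACG), found on either strand. The first and second of these patterns can overlap, as they do in HSPA8.
HSPA1A, chr6:31815293-31815542, plus strand: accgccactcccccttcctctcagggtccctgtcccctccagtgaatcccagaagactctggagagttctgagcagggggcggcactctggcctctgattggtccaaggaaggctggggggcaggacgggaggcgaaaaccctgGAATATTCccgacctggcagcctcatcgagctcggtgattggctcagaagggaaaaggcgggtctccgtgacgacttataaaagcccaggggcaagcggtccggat
HSPA1B, chr6:31827488-31827737, plus strand: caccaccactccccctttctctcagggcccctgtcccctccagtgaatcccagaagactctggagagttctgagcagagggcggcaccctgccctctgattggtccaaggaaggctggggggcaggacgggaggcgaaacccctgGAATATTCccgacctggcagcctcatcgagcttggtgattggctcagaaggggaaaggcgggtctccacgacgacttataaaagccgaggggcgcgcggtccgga
HSPA8, chr11:123062137-123062386, minus strand: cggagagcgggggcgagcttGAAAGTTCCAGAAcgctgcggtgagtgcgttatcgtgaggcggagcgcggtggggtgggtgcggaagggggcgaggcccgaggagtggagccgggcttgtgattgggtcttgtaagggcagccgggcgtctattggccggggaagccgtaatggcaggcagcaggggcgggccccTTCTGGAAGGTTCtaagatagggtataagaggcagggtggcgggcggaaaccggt
HSPA5, chr9:125241344-125241593, minus strand: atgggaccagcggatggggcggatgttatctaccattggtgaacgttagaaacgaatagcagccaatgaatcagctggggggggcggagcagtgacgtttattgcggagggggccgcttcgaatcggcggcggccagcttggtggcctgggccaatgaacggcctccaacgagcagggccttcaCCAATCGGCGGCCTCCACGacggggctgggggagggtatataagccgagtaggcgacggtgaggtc
HSP90B1, chr12:103930160-103930409, plus strand: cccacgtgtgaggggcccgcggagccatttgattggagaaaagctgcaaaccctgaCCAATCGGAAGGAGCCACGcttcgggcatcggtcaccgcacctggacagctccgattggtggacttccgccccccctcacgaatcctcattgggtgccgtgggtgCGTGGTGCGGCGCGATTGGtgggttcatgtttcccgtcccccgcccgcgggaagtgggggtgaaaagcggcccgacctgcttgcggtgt

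The HSPA1A and HSPA1B upstream sequences aligned over 249 bases with 235 identical (94.4%), and each holds 1 GAANNTTC match. In the longer window of 250 bases before and 50 after the start, 63 of the 70 genes had a RefSeq promoter. A GAANNTTC or TTCNNGAA match was present in 14 of the 63 (22.2%), against 13.8% of 27305 promoters of all genes. The ER stress element was present in HSPA5 and HSP90B1 (3.17% of the 63), against 0.0806% of all promoters. Of the 14 genes with a heat shock core match, HSPA8, DNAJC15 and HSPA1A rose, CCT4, HSPD1 and HSPA1B fell, and 8 were not called (edgeR, adjusted p under 0.05). Over all 13832 tested genes 38.5% were called. A match is a description of the letters and not a binding site.

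IRS2 was counted 408, 437 and 381 times in controls and 186, 210 and 216 times after knockdown, so the groups did not overlap. Its scaled level was 32.8 ± 1.55 CPM (counts scaled to library size, SD, n = 3) against 12.5 ± 0.491, a log2 fold change of -1.39 ± 0.07 (SE; edgeR adjusted p = 3.12e-11). Total counts were 11816973 to 12585013 for controls and 14329348 to 18114656 for knockdown libraries, every knockdown library being deeper. The epithelial markers KRT8, KRT18, EPCAM, CDX2 and VIL1 were detected in every library, whereas KRT20, CDX1 and CEACAM5 were at 0, and CDH1 and LGALS4 had at most 5 and 3 counts. The summed level of 6 fibroblast markers was 7.52 to 25.9 CPM in controls against 4.32 to 5.70 CPM after knockdown, highest in control 1. Summed leukocyte markers were 1.90 to 3.34 and 2.19 to 3.24 CPM, and endothelial markers stayed at or under 0.871 CPM. The part of marker level in the results below was not tested. Leaving out control 1 does not test it, because summed fibroblast markers in the other controls still exceeded those in every knockdown library. With every library thinned to the smallest total, 8 of the chaperone genes rose and 7 fell, all 15 among those called at full depth. Without control 1, 9 of the chaperone genes rose and 9 fell. Over all genes 5031 were called in thinned counts and 4593 without control 1, against 5329 in the main analysis.

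Individual chaperones differed between knockdown and control by small amounts, in both directions. In edgeR's quasi-likelihood test, with an adjusted p under 0.05 over all 13832 tested genes as the threshold, 21 of the 70 genes were called (30.0%), 11 higher and 10 lower. Over all tested genes 38.5% were called, 19.3% higher and 19.2% lower. The median log2 fold change of the 70 was 0.01 and the median absolute value 0.07, against -0.00 and 0.14 over all tested genes. The 3 values of a group lay wholly apart for 25 of the 70, 15 above and 10 below, and this was so for 47.6% of all tested genes. At a mean of 500 counts or more, 14 of 46 chaperones were called (30.4%), 7 in each direction, against 46.3% of 6192 genes (28.6% higher, 17.7% lower). A single called chaperone of the 70, DNAJC12 at 4 to 26 counts a library, changed at least 2-fold, against 678 called genes of all 13832 tested. With an offset for transcript length and GC content in each library, 23 of the 70 were called higher and 5 lower, and 65.9% of calls over all genes were higher, against 50.2% here. With that offset centred in each library, a setting chosen after the uncentred result was seen, the counts were 11 and 10 and the share was 51.3%.

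**Figure D1:**
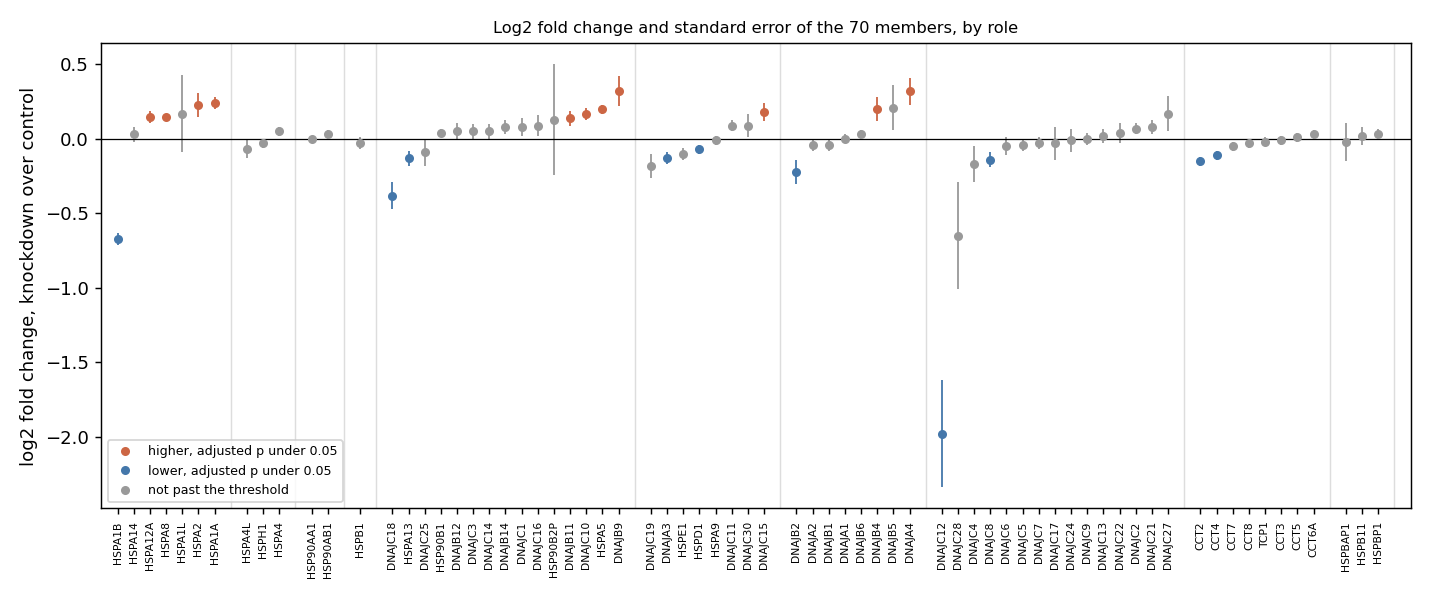
Log2 fold change of each of the 70 chaperone genes (knockdown minus control, with SE from edgeR) grouped by role, with higher calls in orange, lower calls in blue and uncalled genes in grey. Most values sit near 0, HSPA1B lies at -0.67 and DNAJC12 at -1.98.

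Among the cytosolic HSP70 genes, 4 of 7 rose and 1 fell (71.4% called, against 38.5% of all tested genes). The median log2 fold change was 0.15. Of the risers, HSPA1A shares 73.8% of its 75-base words with HSPA1B, which fell, and HSPA2 was called in only 7 of 21 alternative analyses. HSPA8 encodes the constitutive HSC70 and had the highest level per transcript length of the genes with an annotated length, 1395 reads per kilobase at the same library scaling (RPKM) in control. Its level was 3122, 3162 and 3191 CPM in control and 3456, 3533 and 3547 CPM in knockdown. Every knockdown library was above every control library, and HSPA8 rose by 0.15 ± 0.02 on the log2 scale (edgeR adjusted p = 4.23e-05). It was called in each of the 21 alternative analyses.

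The stress-inducible genes HSPA1A and HSPA1B, which encode HSP70 proteins of near-identical sequence, moved in opposite directions. HSPA1B was at 374.2, 358.4 and 347.2 CPM in control and 210.2, 229.9 and 236.5 CPM in knockdown, with a wide gap between the groups. It fell by 0.67 ± 0.04 on the log2 scale (edgeR adjusted p = 2.32e-10). HSPA1A was at 125.4, 135.9 and 132.1 CPM in control and 152.0, 153.7 and 158.8 CPM in knockdown, again without overlap and in the other direction. It rose by 0.24 ± 0.04 (edgeR adjusted p = 5.49e-05). HSPA1B held 73.3% ± 1.40 (SD, n = 3) of the counts of the pair in control and 59.3% ± 1.07 in knockdown (exact permutation p = 0.1, two-sided, the smallest that 3 against 3 allows).

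These 2 genes lie beside each other on GRCh37 at chr6:31783320-31785723 and chr6:31795515-31798031. Of all 75-base words in the HSPA1A transcript, 73.8% also occur in HSPA1B, and of those in HSPA1B, 70.2% also occur in HSPA1A. How the counting treated reads that fit both is not given in the sources used here, so the split between the genes is uncertain. With their counts summed, a setting chosen after the data were seen, the pair was at 499.6, 494.3 and 479.4 CPM in control and 362.2, 383.7 and 395.3 CPM in knockdown. The groups of the summed pair did not overlap either. The summed pair fell by 0.37 ± 0.03 on the log2 scale, 1.29-fold (edgeR adjusted p = 6.80e-08), so the direction of HSPA1A is not that of the pair.

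**Figure D2:**
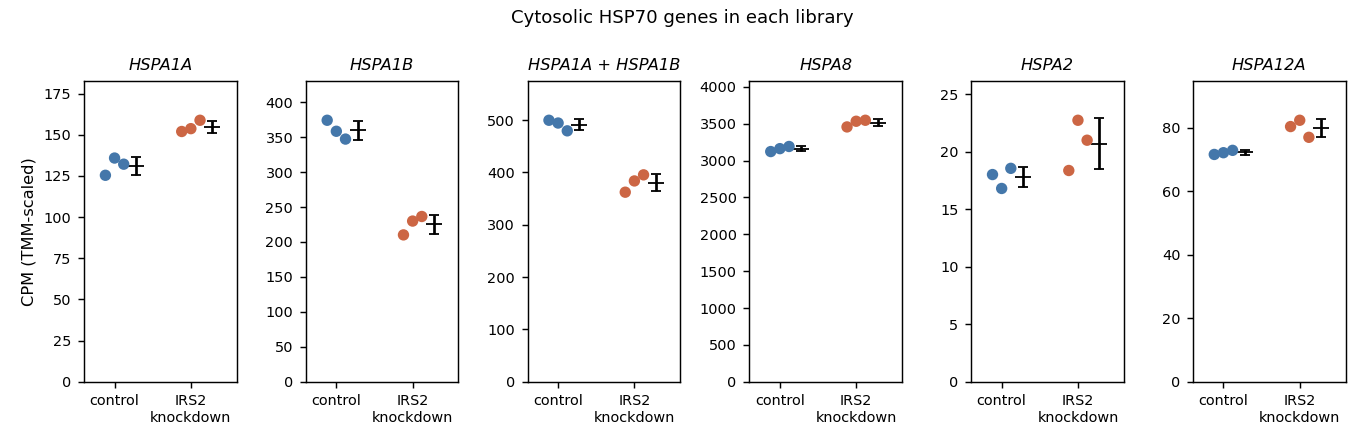
CPM of cytosolic HSP70 genes in each library, with the mean and SD of the 3 control (blue) and 3 knockdown (orange) libraries beside the points. HSPA1B and the summed pair are lower in every knockdown library, while HSPA1A, HSPA8 and HSPA12A are higher in every one and HSPA2 overlaps.

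HSPA12A, a divergent HSP70 relative, was at 71.5, 72.1 and 72.8 CPM in control and 80.3, 82.3 and 76.9 CPM in knockdown. It rose by 0.15 ± 0.04 on the log2 scale (edgeR adjusted p = 0.0115). The call was lost without knockdown 2 (adjusted p = 0.0716, edgeR), in the DESeq2 Wald test (adjusted p = 0.0536) and at a threshold of 0.01. HSPA2, named after its values were seen, rose by 0.23 ± 0.08 (edgeR adjusted p = 0.0404) with overlapping groups, and was called in 7 of 21 alternatives, not without control 1, control 2, knockdown 2 or knockdown 3 (adjusted p from 0.0741 to 0.216, edgeR). HSPA14 and HSPA1L were not called.

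The nucleotide exchange factors of the HSP110 family were not called. HSPA4 had a log2 fold change of 0.05 ± 0.03 and HSPH1 of -0.03 ± 0.03. The groups of both overlapped, at 558.4 to 584.3 against 579.6 to 595.0 CPM for HSPA4 and 552.6 to 598.8 against 564.3 to 572.7 CPM for HSPH1. HSPA4 was called higher under the uncentred length and GC offset (0.11, edgeR adjusted p = 0.000545).

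The cytosolic HSP90 genes were among the most abundant chaperones and were not called. HSP90AA1, the inducible form, was at 3723, 3791 and 3857 CPM in control and 3710, 3790 and 3865 CPM in knockdown. Its groups covered almost the same range (log2 fold change -0.00 ± 0.02, edgeR adjusted p = 0.985). HSP90AB1, the constitutive form, was at 2373, 2377 and 2403 CPM in control and 2372, 2433 and 2511 CPM in knockdown, with overlap (0.03 ± 0.03, adjusted p = 0.348 in edgeR). Under the uncentred length and GC offset both were called higher, at 0.05 (edgeR adjusted p = 0.0273) and 0.09 (edgeR adjusted p = 0.000838), and under the centred one neither was. HSPB1 encodes HSP27 and was the only small heat shock protein gene above 10 counts. It was at 319.8, 314.9 and 290.8 CPM in control and 295.4, 296.3 and 313.6 CPM in knockdown, with overlapping groups and no call (-0.03 ± 0.04).

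In the ER group, which counts the pseudogene HSP90B2P (not called), 4 of 15 genes rose and 2 fell. The median log2 fold change was 0.08. Called were 40.0% of the 15, against 38.5% of all tested genes. HSPA5 encodes BiP, the ER HSP70. It was at 523.5, 531.1 and 528.6 CPM in control and 591.5, 594.2 and 632.9 CPM in knockdown, without overlap. HSPA5 rose by 0.20 ± 0.03 on the log2 scale (edgeR adjusted p = 3.99e-05) and was called in each of the 21 alternatives. Its DNAJ partner DNAJC10, an ER disulfide reductase, was at 103.4, 102.8 and 112.4 CPM in control and 116.9, 123.4 and 118.2 CPM in knockdown. DNAJC10 rose by 0.17 ± 0.04 (edgeR adjusted p = 0.00308), also in each alternative.

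DNAJB9, the BiP co-chaperone ERdj4, was at 11.9, 11.4 and 11.2 CPM in control and 14.8, 12.6 and 15.7 CPM in knockdown. It rose by 0.32 ± 0.10 on the log2 scale (edgeR adjusted p = 0.0145). The call was lost without knockdown 3 (adjusted p = 0.0742, edgeR), in the DESeq2 Wald test (adjusted p = 0.0966) and at a threshold of 0.01. DNAJB11, the BiP co-chaperone ERdj3, named after its values were seen, rose by 0.14 ± 0.05 (edgeR adjusted p = 0.0434) with overlapping groups. It was called in 8 of 21 alternatives, not without any 1 control library, knockdown 2 or knockdown 3 (adjusted p from 0.0721 to 0.213, edgeR). Of its 75-base words, 24.1% occur in other genes as well.

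HSP90B1, the ER HSP90 called GRP94, was at 635.0, 657.5 and 652.5 CPM in control and 645.7, 678.5 and 677.6 CPM in knockdown. Unlike HSPA5, with which it shares the ER stress element shown above, it was not called (0.04 ± 0.03, edgeR adjusted p = 0.283). Whether the 2 genes differ in response was not tested, and HSP90B1 was called higher under the uncentred length and GC offset (0.10, edgeR adjusted p = 0.0014). The members that fell were DNAJC18 and HSPA13. DNAJC18, an ER membrane DNAJ protein, was at 14.4, 15.9 and 14.9 CPM in control and 11.7, 11.2 and 11.8 CPM in knockdown. It fell by 0.38 ± 0.09 on the log2 scale (edgeR adjusted p = 0.00179), without overlap and in each alternative. HSPA13, a microsomal HSP70 relative, was at 43.6, 45.2 and 47.4 CPM in control and 40.7, 42.2 and 41.0 CPM in knockdown, narrowly apart. It fell by 0.13 ± 0.05 (edgeR adjusted p = 0.0482), but was called in only 4 of 21 alternatives, and the call was lost without control 2, control 3 or any 1 knockdown library (adjusted p from 0.069 to 0.197, edgeR).

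**Figure D3:**
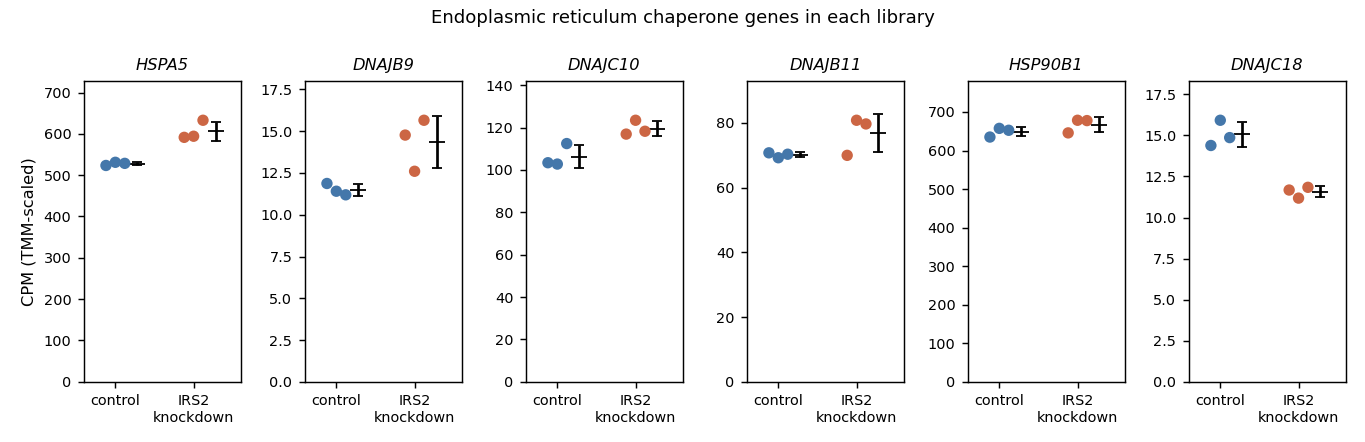
CPM of 6 ER chaperone genes in each library, with the mean and SD of the 3 control (blue) and 3 knockdown (orange) libraries. HSPA5, DNAJB9 and DNAJC10 are higher in every knockdown library, DNAJC18 is lower in every one, and DNAJB11 and HSP90B1 overlap.

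Of the 8 mitochondrial genes 1 rose and 2 fell (37.5% called, near the 38.5% of all tested genes). HSPD1, which encodes the HSP60 chaperonin, was at 1853, 1908 and 1907 CPM in control and 1788, 1790 and 1829 CPM in knockdown. The groups did not overlap and HSPD1 fell by 0.07 ± 0.03 on the log2 scale (edgeR adjusted p = 0.0391). That call was present in 10 of 21 alternatives. It was lost without control 2, control 3, knockdown 1 or knockdown 2 (adjusted p from 0.106 to 0.183, edgeR), and the log2 fold change was -0.01 under the uncentred length and GC offset. Its partner HSPE1, which encodes HSP10, was at 356.2, 342.3 and 315.0 CPM in control and 308.0, 310.6 and 329.2 CPM in knockdown, with overlap and no call (-0.10 ± 0.04, edgeR adjusted p = 0.0639). HSPE1 was called lower in 6 of 21 alternatives, among them library size alone (edgeR adjusted p = 0.0141) and without control 3 (-0.14, edgeR adjusted p = 0.00706) or knockdown 3 (-0.13, edgeR adjusted p = 0.0138). HSPE1 shares 40.4% of its 75-base words with other genes and HSPD1 11.1%.

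HSPA9 encodes mortalin, the mitochondrial HSP70. It was at 604.1, 628.4 and 627.8 CPM in control and 622.0, 613.9 and 615.9 CPM in knockdown, with overlap and no call (-0.01 ± 0.03). DNAJA3, its DNAJ partner, was at 133.1, 131.3 and 134.8 CPM in control and 121.8, 122.1 and 120.2 CPM in knockdown. DNAJA3 fell by 0.13 ± 0.04 on the log2 scale (edgeR adjusted p = 0.00566) in each of the 21 alternatives. DNAJC15, a DNAJ protein of the inner membrane import motor, was at 39.0, 39.6 and 35.9 CPM in control and 42.0, 42.6 and 44.7 CPM in knockdown. DNAJC15 rose by 0.18 ± 0.06 (edgeR adjusted p = 0.0166), and the call was lost without control 3 (adjusted p = 0.0764, edgeR) or knockdown 3 (adjusted p = 0.0615, edgeR). It was also lost in the DESeq2 Wald test (adjusted p = 0.0995) and at a threshold of 0.01.

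Of the 8 cytosolic DNAJA and DNAJB genes 2 rose and 1 fell (37.5% called, near the 38.5% of all tested genes). DNAJA4 was at 18.5, 14.9 and 19.5 CPM in control and 22.1, 21.1 and 22.7 CPM in knockdown. It rose by 0.32 ± 0.09 on the log2 scale (edgeR adjusted p = 0.00664), and without control 2, its lowest library, the adjusted p was 0.0578 in edgeR. DNAJB4 was at 17.2, 16.2 and 18.2 CPM in control and 18.8, 20.5 and 20.0 CPM in knockdown. It rose by 0.20 ± 0.08 (edgeR adjusted p = 0.0425), in 10 of 21 alternatives, and the call was lost without control 1, control 2, knockdown 2 or knockdown 3 (adjusted p from 0.0826 to 0.156, edgeR). DNAJB1, the main heat-inducible HSP40, was at 205.7, 220.3 and 202.4 CPM in control and 199.3, 203.0 and 207.0 CPM in knockdown, with overlap and no call (-0.04 ± 0.04). DNAJB2, named after its values were seen, fell by 0.22 ± 0.08 (edgeR adjusted p = 0.0405) with overlapping groups, in 13 of 21 alternatives. Its call was lost without control 1, control 3, knockdown 1 or knockdown 2 (adjusted p from 0.0644 to 0.196, edgeR).

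The other DNAJC genes hold 2 calls among 15 (13.3%, against 38.5% of all tested genes). Both were lower and both are named after their values were seen. DNAJC12, a co-chaperone of the aromatic amino acid hydroxylases, had 17, 26 and 18 counts in control and 6, 4 and 10 counts in knockdown libraries. Its groups did not overlap although the knockdown libraries were deeper, and it fell by 1.98 ± 0.36 on the log2 scale (edgeR adjusted p = 0.000238). It rests on few counts, and was called in each of the 20 alternatives that tested it. DNAJC8, a splicing-associated DNAJ protein, fell by 0.14 ± 0.05 (edgeR adjusted p = 0.0247) with overlapping groups, in 13 of 21 alternatives. Its call was lost without control 1, control 2, knockdown 1 or knockdown 2 (adjusted p from 0.0847 to 0.141, edgeR).

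In the chaperonin ring, 2 of 8 subunit genes fell, none rose and 6 were not called. The share called was 25.0%, against 38.5% of all tested genes (19.2% lower). The median log2 fold change of the ring genes was -0.02. CCT2 was at 267.9, 255.3 and 261.1 CPM in control and 227.7, 238.1 and 242.6 CPM in knockdown, without overlap. It fell by 0.15 ± 0.03 on the log2 scale (edgeR adjusted p = 0.00202) in each of the 21 alternatives. CCT4 was at 684.5, 687.4 and 673.6 CPM in control and 616.1, 635.2 and 641.7 CPM in knockdown, also without overlap. CCT4 fell by 0.11 ± 0.03 (edgeR adjusted p = 0.00366), and the uncentred length and GC offset ended the call (-0.05, edgeR adjusted p = 0.0783).

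The ring holds each subunit in the same number of copies, and the other 6 subunit genes were not called. CCT7 was at 878.4, 888.3 and 865.3 CPM in control and 836.1, 835.1 and 864.7 CPM in knockdown, narrowly apart and not called (-0.05 ± 0.03). CCT6A was at 944.0, 945.8 and 946.9 CPM in control and 952.2, 951.6 and 985.1 CPM in knockdown, narrowly apart in the other direction and not called (0.03 ± 0.03). TCP1 had 487.3 to 494.9 CPM in control and 481.5 to 491.7 in knockdown, CCT3 495.4 to 521.9 and 499.7 to 525.4, CCT5 794.5 to 822.6 and 790.7 to 847.3, and CCT8 386.8 to 396.8 and 369.5 to 394.9. These 4 overlapped and were not called. Under the uncentred length and GC offset CCT5 (0.07, edgeR adjusted p = 0.0384) and CCT6A (0.09, edgeR adjusted p = 0.00197) were called higher. CCT7 was called lower in 5 of 21 alternatives, among them library size alone (-0.08, edgeR adjusted p = 0.0116), the centred length and GC offset (-0.07, edgeR adjusted p = 0.0196) and without knockdown 3 (-0.07, edgeR adjusted p = 0.0339). Per transcript length the control levels of the ring genes ran from 136 (CCT2) to 475 (CCT7) RPKM. Their summed level was 4964 ± 45.9 CPM in control and 4864 ± 115 CPM after knockdown (SD, n = 3), with overlap. As a share of all counts, without TMM scaling, they made up 0.501% ± 0.00332 for controls and 0.481% ± 0.00917 for knockdown libraries, without overlap.

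**Figure D4:**
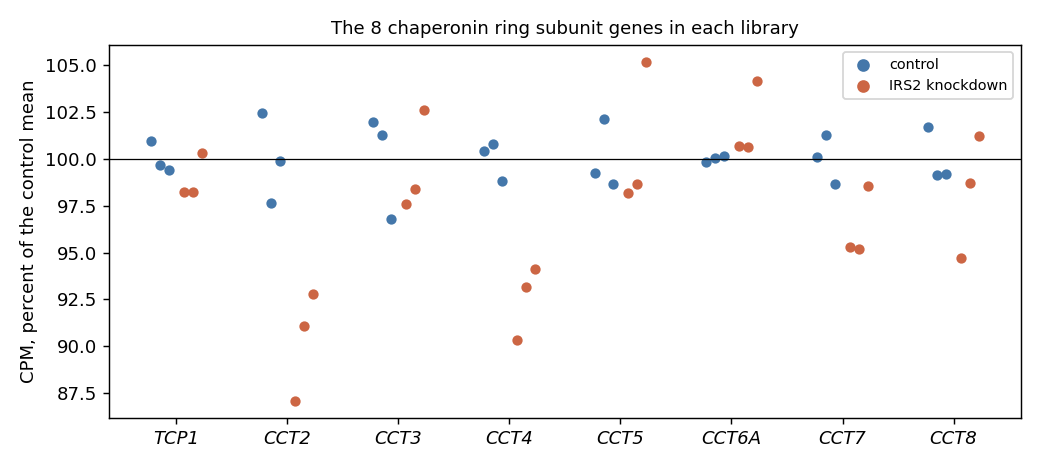
CPM of the 8 chaperonin ring genes in each library as a percent of the gene's control mean (axis not starting at 0). CCT2, CCT4 and, narrowly, CCT7 lie below the control libraries in every knockdown library. CCT6A lies narrowly above them in every one, and the other genes overlap.

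All 70 genes together took 2.36% ± 0.0163 of the counts in control and 2.33% ± 0.0349 in knockdown (SD, n = 3), with overlap. In TMM-scaled CPM the difference had the other sign, 23371 ± 156.7 in control against 23580 ± 457.6 in knockdown, also with overlap.

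Lists of partner genes outside the 70, some of which share genes, gave calls in both directions. The lists were chosen with earlier results of these data known, so a share called above that of all tested genes describes the list only. Of the 43 genes called in these lists, 27 were called in every alternative, and the examples with values are from those 27. Among 37 HSP70 and HSP90 co-chaperones, 9 rose and 7 fell (43.2% called, near the 38.5% of all tested genes). CDC37L1 rose by 0.61 ± 0.08 on the log2 scale, TOMM34 by 0.48 ± 0.03, and BAG2 and BAG3, nucleotide exchange factors of HSP70, by 0.31 ± 0.04 and 0.22 ± 0.04. AHSA1, which stimulates the HSP90 ATPase, fell by 0.19 ± 0.03, and PTGES3, the HSP90 co-chaperone p23, fell by 0.16 ± 0.03. Of 12 prefoldin and chaperonin helper genes none rose and 3 fell (25.0% called), PFDN1 (-0.19 ± 0.05), VBP1 and PFDN4, and the calls of VBP1 and PFDN4 were lost in some alternatives.

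A further list held heat shock factors, the factor-binding protein HSBP1 and textbook HSF1 targets outside the 70 genes. Of its 15 tested genes, 4 rose and 7 fell (73.3% called, against 38.5% of all tested genes). Genes of the 70 described above as inducible are not in it. Of these, HSPA1A and HSPA1B were called, in opposite directions, and HSP90AA1 and DNAJB1 were not. HSF1 itself went from 121.1 ± 3.47 to 108.8 ± 2.28 CPM (SD, n = 3) and fell by 0.16 ± 0.04 on the log2 scale (edgeR adjusted p = 0.00313). Among the targets, BAG3, SERPINH1 and FKBP4 rose, and AHSA1 and MRPL18 fell. UBB, HSF2, HSF4 and HSBP1 also fell, with calls lost in some alternatives, UBB in 7 of 21 and without control 1, control 2, knockdown 1 or knockdown 2 among them.

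Of 27 ER chaperone and unfolded protein response genes outside the 70, 10 rose and 5 fell (55.6% called, against 38.5%). The share was 40.0% in the ER group of the 70. HYOU1, the ER HSP110, rose by 0.24 ± 0.03 on the log2 scale, the lectin chaperone CANX by 0.22 ± 0.03, and the disulfide isomerases PDIA4, PDIA6 and P4HB by 0.17 ± 0.03, 0.14 ± 0.03 and 0.12 ± 0.03. The sensors ATF6 and ERN1 rose by 0.26 ± 0.05 and 0.35 ± 0.09. Not called were 12 genes of this list, among them XBP1, HERPUD1, SDF2L1, MANF, CRELD2, CALR and DDIT3. ATF4, a transcription factor of the response, fell by 0.27 ± 0.03, PPP1R15A by 0.33 ± 0.04, and EDEM1, which acts in ER-associated degradation, by 0.82 ± 0.06 (edgeR adjusted p = 5.26e-09). Of 14 tested mitochondrial quality control genes (14.3% called) 1 rose (AFG3L2, 0.20 ± 0.03) and 1 fell (HTRA2, -0.17 ± 0.05), the latter not in every alternative.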

How the data were processed

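The authors deposited whole-number read counts per gene symbol and a second table of normalized signal, counts divided by 1 factor per library. The submitters' processing notes name STAR 2.6.1a, Salmon, DESeq2 and hg19, with no roles. Strand setting, annotation and the treatment of shared reads are not given in the sources used here. Counts were tested with edgeR 4.0.16 in R 4.3.3 (TMM factors, filterByExpr, quasi-likelihood F-test, group only), with Benjamini-Hochberg adjustment over all 13832 tested genes and a threshold of 0.05. SE was derived from each log2 fold change and its F statistic. The fit was tested on simulated data. CPM are TMM-scaled, and levels per length use the canonical transcript. Coordinates of genes and shared 75-base words come from GENCODE version 44 lifted to GRCh37, and promoters from RefSeq on GRCh38.p14. Transcript length and GC content were available for 95.8% of tested genes.

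Members and lists were chosen with earlier results of these data known. Values per library are given for 22 fixed genes and for up to 10 called risers and 10 fallers averaging 50 counts or more and without overlap between groups. The alternatives were other scalings, filters and tests (DESeq2 1.42.0, limma 3.58.1, limma on the deposited normalized values with a pseudocount of 1), thinned counts, a threshold of 0.01, the replicate number as a block, the length and GC offset, and leaving out each library. The offset centred in each library and the summed HSPA1A and HSPA1B counts were added after seeing the data. Replicates are 3 cultures a group, and depth is 11816973 to 18114656 counts. The values of 1 listed partner gene are not reported here.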

Additional observations from a re-analysis of the deposited data

How the results depend on the processing

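The 21 calls among the 70 genes were 12 (5 higher) with the DESeq2 Wald test and 11 (5 higher and 6 lower) at an adjusted p under 0.01. They were 13 to 18 when 1 library was left out (6 to 11 higher, 6 to 11 lower). Over all genes the calls fell too, from 5329 to 3604 (Wald test), 3714 (0.01) and 4319 to 5256 (1 library left out). Under the planned length and GC offset 23 of the 70 were higher and 5 lower, and with the replicate block added 21 and 6. That offset also rescales libraries: the median log2 fold change of all genes was 0.05 under it. Centred in each library, a setting chosen after the uncentred result was seen, it gave 11 higher and 10 lower, and 12 and 10 with the replicate block. The other settings stayed within 1.5 times the main count. Over the alternatives 3604 to 6076 genes were called in all. Of the 21 calls, 9 (4 higher, 5 lower) were made in every alternative that tested the gene: HSPA8, HSPA1A, HSPA5, DNAJC10, HSPA1B, DNAJC18, DNAJA3, CCT2 and DNAJC12. These alternatives leave out the summed HSPA1A and HSPA1B counts, under which the pair fell (-0.37), against the direction of HSPA1A. With the replicate number as a block 16 were called, all among the 21, and 4862 over all genes. The numbers did not pair the libraries: the correlations of same-numbered deviations were 0.04, -0.01 and -0.10, and 1 of 6 libraries correlated best with its own number.

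Over the 31 genes with values per library and the 19 alternatives not added later (589 values), 478 kept direction and side of the threshold, 50 lost a call, 18 gained one and 43 changed sign, none of them for a gene called in the main analysis. HSP90AA1 was at 0.0011 with DESeq2 size factors, 0.01 without a filter, by the DESeq2 Wald test and on the deposited normalized values, 0.0016 in thinned counts, and -0.01 to 0.02 with 1 library left out. HSPA9 was at 0.0048 without a filter, 0.0016 by the Wald test, 0.0018 on the deposited normalized values, and -0.03 to 0.01 with 1 library left out. CCT3 was at 0.0047, 0.0017 and 0.0014 in the same settings, and -0.03 to 0.01. CCT5 was at -0.01 with upper-quartile factors, -0.02 by library size alone, -0.003 with the filter at 50 counts, and -0.02 to 0.03 with 1 library left out. CCT6A was at -0.0041 by library size alone. HSPH1 ranged from -0.06 to 0.004 and CCT8 from -0.05 to 0.0013 with 1 library left out. Under the uncentred offset, with and without the block, HSP90AA1, HSPA9 and TCP1 were at 0.05, CCT3, CCT8, HSPH1 and HSPB1 at 0.04, and HSPE1 at 0.03. Under the centred offset HSP90AA1 was at 0.0018, and 0.0016 with the block. HSPA1A was at -0.37 when summed with HSPA1B. The cause of these changes was not tested. At 4 to 26 counts a library, DNAJC12 is the called gene with the least depth.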
